A study of Drosophila melanogaster with 2 samples.

Results

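Cytoplasmic ribosomal protein genes encode the proteins of the ribosome that works in the cytosol, as opposed to the mitochondrial one. They were taken here as the protein-coding genes whose symbol begins with RpL, RpS or RpLP followed by a number, which gave 92 of the 13945 protein-coding genes on the 6 arms analysed. Proteins of the large subunit are encoded by 54 of them, the stalk protein genes (RpLP) included, and proteins of the small subunit by 38. The symbol rule also takes in 5 genes that are named only for their likeness to a ribosomal protein (RpL7-like, RpL22-like, RpL24-like, RpLP0-like and RpS28-like), and these are given apart where it matters.

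The measurements come from chromatin immunoprecipitation sequencing (ChIP-seq) of E(spl)m3-HLH, a DNA-binding repressor of the basic helix-loop-helix-Orange family that Notch signalling switches on in many embryonic tissues. The series has 1 group of 2 samples, biological replicates 2 and 3, both from whole Drosophila melanogaster embryos of mixed sex, collected between 0 and 24 h, from a transgenic line that carries E(spl)m3 with GFP at its C terminus. The labels describe precipitation with an antibody to GFP, while their antibody field names E(spl)m3-HLH itself, and sonication gave fragments of 200 to 800 bp. No untreated or control embryos are compared here, all tissues are mixed in each sample, the promoter that drives the tagged protein is not stated in the labels, and read counts and depth are unknown.

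Each ribosome holds 1 copy of nearly every ribosomal protein, so these genes are transcribed strongly and in step in almost every cell, and a reduced dose of many of them in the fly gives the Minute phenotype of slow growth and short bristles. In flies, their transcripts begin at a short pyrimidine-rich element, the TCT initiator, in place of the more common initiator, and many of their promoters hold the DNA replication-related element (DRE) or the motif of the zinc-finger factor M1BP. Members of the E(spl) family bind the E-box CACGTG, the class C site CACGCG and the N-box CACNAG.

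Windows at the summits of the strongest peaks show the letters under the signal. The 6 windows below lie at the 6 strongest ribosomal protein genes whose sequence is given here. They were read from the RefSeq genome, Release 6 (dm6), on the strand of the gene, 50 bases to each side of the summit and shortened where more than 30 bases would fall in an untranslated region. The summit is base 51 of each. Capitals mark the E-box CACGTG, the class C site CACGCG, the N-box CACNAG, the DRE searched as TATCGATA and the M1BP core searched as GGTCACAC, on either strand.
RpS27, chr3R:25247485-25247574, minus strand: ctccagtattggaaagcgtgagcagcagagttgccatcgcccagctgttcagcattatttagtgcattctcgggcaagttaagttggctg
RpL34b, chr3R:9401262-9401362, minus strand: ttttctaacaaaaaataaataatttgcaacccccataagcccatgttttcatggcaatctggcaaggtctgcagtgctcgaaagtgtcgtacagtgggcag
RpL7, chr2L:10200979-10201033, plus strand: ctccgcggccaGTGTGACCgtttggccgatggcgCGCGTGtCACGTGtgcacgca
RpS20, chr3R:20821967-20822067, plus strand: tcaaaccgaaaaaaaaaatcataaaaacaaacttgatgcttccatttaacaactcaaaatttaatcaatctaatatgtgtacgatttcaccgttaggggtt
RpL32, chr3R:30046295-30046395, minus strand: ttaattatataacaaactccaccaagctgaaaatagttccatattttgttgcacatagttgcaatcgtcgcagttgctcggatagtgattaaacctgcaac
RpS28b, chrX:9553792-9553892, plus strand: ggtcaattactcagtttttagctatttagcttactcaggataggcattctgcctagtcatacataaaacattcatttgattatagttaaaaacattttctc

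Of these 6 windows, the one at RpL7 holds a class C site, an E-box and an M1BP core beside each other, and the other 5 hold none of the 5 motifs. Their composition also differs, with G and C making up 61.4% of the full 101-base window at RpL7, 50.5% at RpS27, 42.6% at RpL34b, 36.6% at RpL32, 30.7% at RpS28b and 28.7% at RpS20. The summit shown for RpL32 lies nearer to the start of CG7943 (125 bp) than to its own. The one shown for RpS28b lies nearer to the start of l(1)G0320 (92 bp).

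A gene was counted as having a peak where the summit of a deposited peak lay within 1 kb of any of its annotated start sites. In the list that the authors thresholded by the irreproducible discovery rate (5701 peaks, called the thresholded list here), 64 of the 92 ribosomal protein genes had a summit (69.6%), and 26.8% of all protein-coding genes did. The thresholded list holds the 5701 strongest peaks of the pooled list, so a gene enters it at a signal of 108 or more. Signal is the authors' peak score, which sets the order of peaks within a list and has no stated scale. In the whole pooled list of 25791 peaks, 86 of the 92 had a summit (93.5%), and 55.1% of all protein-coding genes did.

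Each replicate's own list gave the same order. In replicate 2, with 30000 peaks, 88 of the 92 ribosomal protein genes had a summit, against 59.9% of all protein-coding genes. In replicate 3, with 24781 peaks, 82 had one, against 52.4% of all protein-coding genes. Both lists held a summit for 81 ribosomal protein genes (88.0%), where 46.3% of all protein-coding genes had one in both. Among the 5701 strongest peaks of replicate 2 the count was 62 of 92, beside 27.4% of all protein-coding genes, and among the 5701 strongest of replicate 3 it was 55 of 92, beside 25.4%. The shares were above those of all genes in each replicate taken alone, and they were lower in replicate 3 than in replicate 2.

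**Figure D1:**
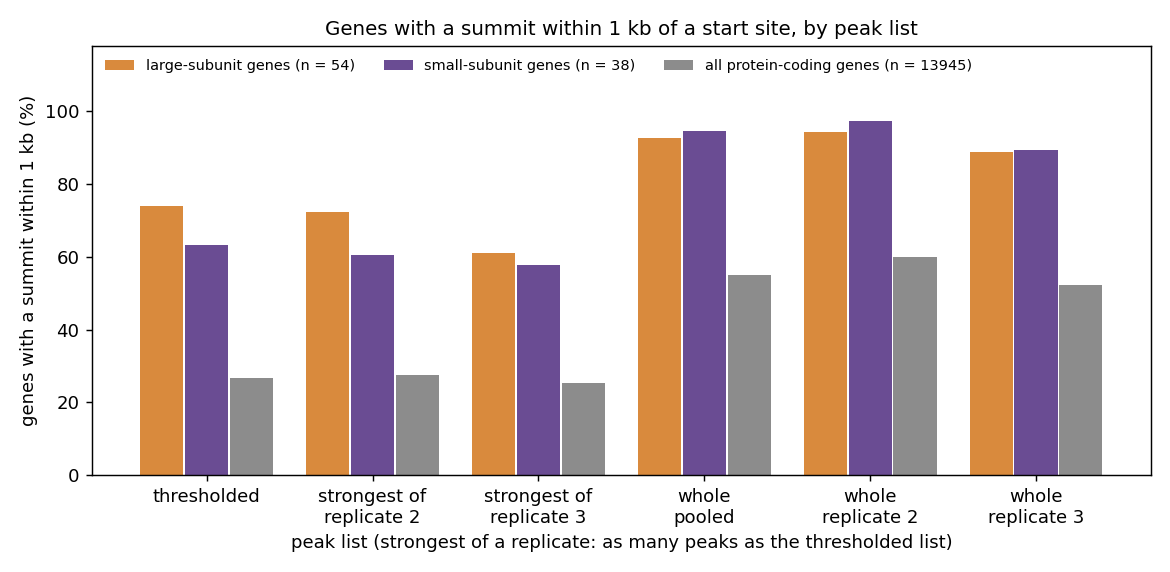
Share of genes (vertical axis, percent) with a summit within 1 kb of a start site in the 4 deposited peak lists and among the 5701 strongest peaks of each replicate, for large-subunit genes, small-subunit genes and all protein-coding genes. In the thresholded list the bars stand at 74.1%, 63.2% and 26.8%, and in all 6 sets of peaks both subunits stand above all genes.

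By subunit, 40 of the 54 large-subunit genes (74.1%) and 24 of the 38 small-subunit genes (63.2%) had a thresholded summit. In the whole pooled list the order turned round, with 50 of 54 large-subunit genes (92.6%) and 36 of 38 small-subunit genes (94.7%). The strongest peaks of replicate 3 alone gave 61.1% of large-subunit and 57.9% of small-subunit genes. Median signal in the thresholded list was 232 at large-subunit genes with a summit and 211 at small-subunit genes with a summit, with overlapping ranges of 109.5 to 643 and 109 to 650.4. The order of the subunits was thus not the same in every list.

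Where ribosomal protein genes had a peak, its median strength was middling. Their median place in the thresholded list was 39.8% of the way down, beside 39.3% for all protein-coding genes with a thresholded summit. They were spread over the whole list, with 15 of the 64 in its strongest 25%, 23 in the next 25%, 12 in the 25% after that and 14 in the weakest 25%. The strongest 25% thus held 23.4% of the ribosomal protein genes with a summit, against 34.1% of all genes with one. The weakest 25% held 21.9%, against 18.5%. The strongest 10% held 5 of the 64 (7.81%), against 15.4% of all genes with a summit. In the whole pooled list their median place was 14.6% of the way down, beside 23.1% for all genes with a pooled summit.

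RpS27, a zinc-finger protein of the small subunit, had the strongest summit, at position 25247524 of chromosome arm 3R, 10 bp upstream of a start site, with a signal of 650.4 and rank 324 in the thresholded list. Its signal was 429.8 at rank 283 in replicate 2 and 222 at rank 437 in replicate 3. RpL34b followed at 643, with 385 at rank 367 in replicate 2 and 251 at rank 331 in replicate 3. RpL7 stood at 638, with 397 at rank 341 in replicate 2 and 238 at rank 371 in replicate 3. These 3 genes lay within the first 1.76% of each replicate's list.

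RpS20 (signal 537) and RpL32 (536), the second of which is widely used as a reference gene for expression in flies, came next, with summits 164 and 184 bp upstream of their start sites. RpS20 ranked 511 in replicate 2 and 488 in replicate 3, and RpL32 ranked 574 in replicate 2 and 419 in replicate 3. RpS28b had a signal of 424, RpL23A of 394 and RpL14 of 393. RpL41, which encodes the smallest ribosomal protein, had 362, and RpL28 had 343. From RpS28b to RpL28 the ranks were 660 to 995 in replicate 2 and 1124 to 1730 in replicate 3, so each of these 5 stood lower in replicate 3.

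At the weak end were RpL35A (signal 111), RpL9 (111), RpL36A (109.5) and RpS28a (109), close to the lowest signal in the thresholded list. RpL35A ranked 4009 in replicate 2 and 15178 in replicate 3, the widest gap of these 4, while RpS28a ranked 6613 in replicate 2 and 4243 in replicate 3. The strongest gene just below the threshold was RpS7, at 102.5 in the pooled list. The other 49 genes with a thresholded summit had signals between these groups, from 112 to 331.

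Among the 81 ribosomal protein genes found in both replicates, signals kept much of their order, with a Spearman's rho of 0.857 and a Pearson's r of log2 signal of 0.869. Over the 64 with a thresholded summit rho was 0.800, and over all 6460 protein-coding genes found in both it was 0.904. These are correlations across genes within 1 pair of samples, and genes are not independent replicates. The signed distance of the strongest summit from its nearest start site differed between replicates by a median of 29 bp at ribosomal protein genes. At all genes found in both the median difference was 31 bp. Where a gene has several start sites, the distances in the 2 replicates can be from different ones. By place in its own list, 72 of the 81 (88.9%) stood higher in replicate 2 than in replicate 3, and 72.9% of all genes found in both did.

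**Figure D2:**
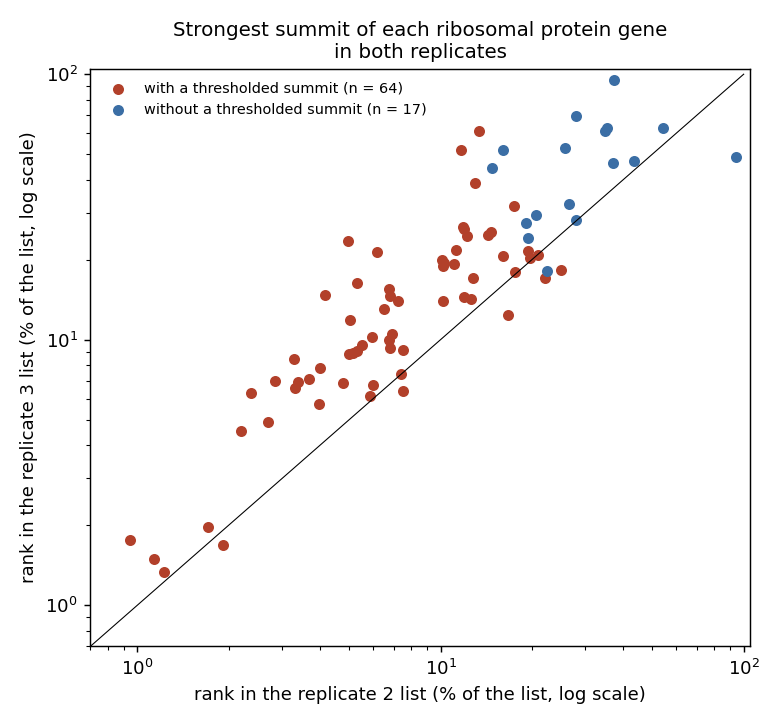
Rank of the strongest summit of each of 81 ribosomal protein genes, as a percent of the replicate 2 list (horizontal) and of the replicate 3 list (vertical), both on log axes, coloured by whether the gene has a thresholded summit. The line marks equal rank, and 72 of the 81 points lie above it, at a better rank in replicate 2.

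The peaks of ribosomal protein genes sat close to the start site. The thresholded summit nearest to a start site lay at a median distance of 48.5 bp, against 159 bp for all protein-coding genes with a thresholded summit. It lay within 100 bp at 50 of 64 (78.1%), against 30.5% of all genes with one. It was upstream of the start site at 58 of 64 (90.6%), beside 86.9% of all genes with one. In the 100 bases just upstream of the start site lay 45 of the 64 summits (70.3%), while 25.4% of those at all genes did, and between 101 and 500 bp upstream lay 10 of the 64, at 9.38% and 6.25% by bin, against 28.3% and 24.7%. The signed distance ran from 915 bp upstream at RpS19b to 124 bp downstream.

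The same position held in each list. Median distance was 44.5 bp in replicate 2 and 46.5 bp in replicate 3 at ribosomal protein genes, against 132 bp in replicate 2 and 160 bp in replicate 3 at all genes. Large-subunit genes had a median of 43.5 bp and small-subunit genes of 56.0 bp in the thresholded list. At the strongest summit of each gene, 48 of the 64 positions were intergenic, 13 were in a noncoding exon stretch, 3 were in an intron and 0 were in coding sequence. That is 75% intergenic and 4.69% intronic at ribosomal protein genes, against 59.5% intergenic and 26.4% intronic at all genes with a summit. Just inside the limit of 1 kb were RpS19b (915 bp upstream) and RpS15 (566 bp upstream), and just outside it were RpLP1 and RpS3, each 1565 bp from the nearest thresholded summit.

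**Figure D3:**
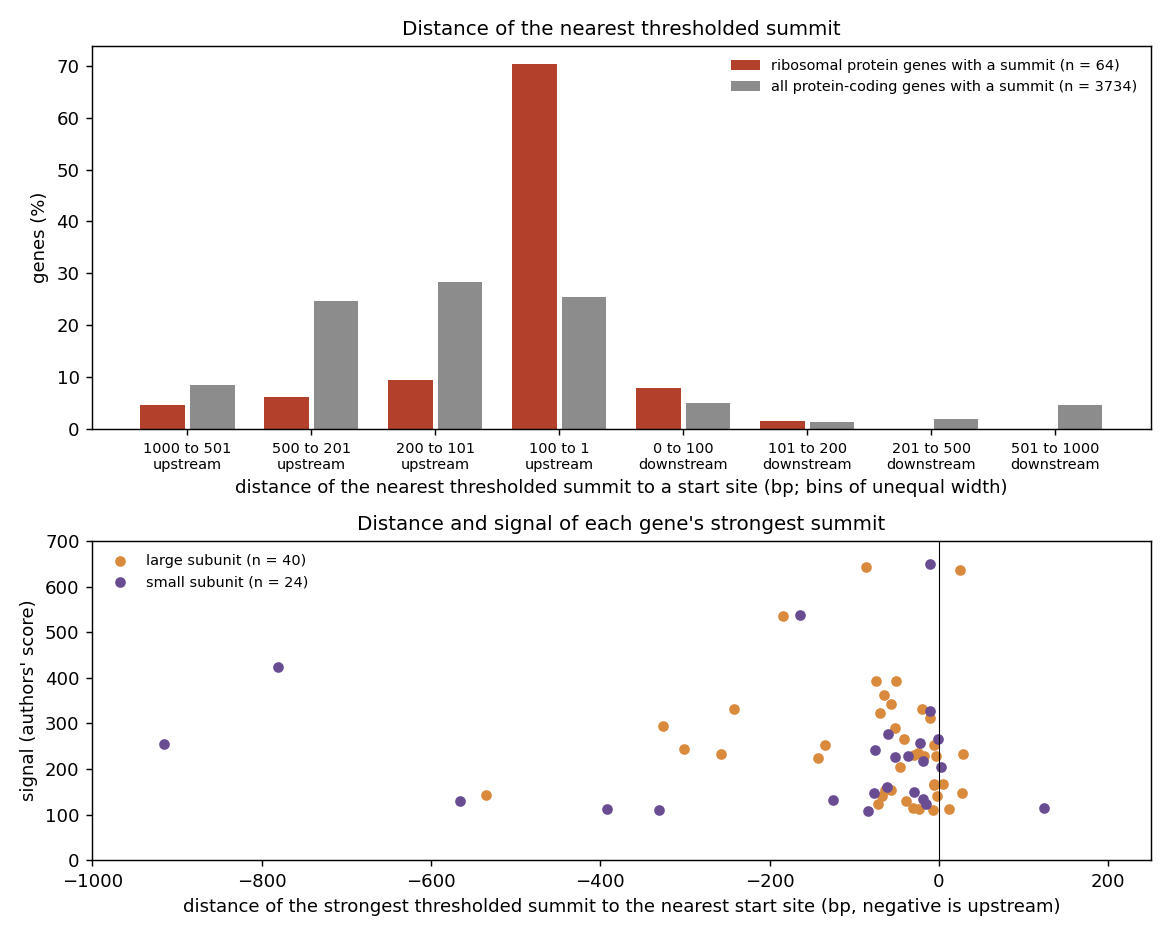
Above, share of genes (percent) by distance of the nearest thresholded summit from a start site, in bins of unequal width, for 64 ribosomal protein genes and 3734 protein-coding genes of all kinds. Below, distance of the strongest thresholded summit (bp, negative is upstream) against its signal for each ribosomal protein gene. The 100 bp upstream of the start site hold 70.3% of the ribosomal protein genes and 25.4% of all genes.

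A neighbouring gene on the other strand often shared the stretch. Another start site lay within 1 kb upstream, on the other strand, at 58 of the 92 ribosomal protein genes (63.0%), against 38.2% of all protein-coding genes. Of those 58, 47 had a thresholded summit (81.0%), where 44.0% of all genes with such a neighbour did. Of the 34 without such a neighbour, 17 had one (50%), where 16.1% of all genes without a neighbour did. Genes with 1 annotated start site gave 31 of 48 (64.6%) against 21.1%, and genes with several gave 33 of 44 (75%) against 42.6%. The ribosomal protein genes were above all genes of the same layout in each of these 4 splits, which were made with the data in view.

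For 52 of the 64 genes the strongest summit had its nearest start site at the ribosomal protein gene itself, shared with Ip259 in the case of RpS27A. At the other 12 it lay nearer to another gene's start. Among these were RpL18 (Neos), RpL23 (CG13531), RpL29 (Sgf29), RpL32 (CG7943), RpL34a (Trmt61), RpL35 (Rab18), RpLP0-like (14-3-3zeta), RpS15 (CG4927), RpS19b (CG5854) and RpS28b (l(1)G0320). RpL23 and RpS28b each had another thresholded summit nearest to their own start. At RpL23 the strongest summit is 326 bp upstream and the other 127 bp upstream, and at RpS28b the strongest is 781 bp upstream and another 41 bp upstream. In all, 54 of the 92 genes had some thresholded summit nearest to their own start, against 19.0% of all protein-coding genes. With any thresholded summit counted, the shares were 69.6% of ribosomal protein genes and 26.8% of all protein-coding genes. For the strongest summit alone, the share over all genes was not taken.

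More than 1 thresholded summit within 1 kb was found at 11 of the 64 genes (17.2%), the same share as among all protein-coding genes with a thresholded summit (17.2%). RpL34b and RpS28b had 3 each. RpL10Ab, RpL23, RpL26, RpL27A, RpL28, RpL41, RpLP0-like, RpS12 and RpS27 had 2 each.

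The 28 ribosomal protein genes without a thresholded summit were 14 of the 54 large-subunit genes and 14 of the 38 small-subunit genes. In the pooled list 22 of the 28 had a weaker summit, and the signal of each gene's strongest one ran from 36.9 to 102.5. At 18 of these 22 the nearest pooled summit lay within 100 bp of a start site. At RpS6, RpL7-like and RpLP2 among these 18, the strongest pooled summit lay farther than 100 bp. The 22 are 78.6% of the 28, against 38.7% of all protein-coding genes without a thresholded summit. The strongest were RpS7 (102.5, 16 bp upstream), RpS14a (102, 25 bp upstream) and RpS6, whose protein is the well-known target of S6 kinase (99.7, 508 bp upstream). A weaker pooled summit of RpS6 lay 33 bp upstream. RpL38 had 97.6, RpS14b 93.4, RpL6 85.1, RpL7A 76.9 and RpS24 73.1, with summits 21, 60, 148, 41 and 69 bp upstream. In each replicate these genes had a summit too, RpS7 at rank 5850 in replicate 2 and 6004 in replicate 3, and RpS6 at 6754 in replicate 2 and 4484 in replicate 3. These RpS6 summits lay apart, 23 bp downstream in replicate 2 and 502 bp upstream in replicate 3.

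Weaker still in the pooled list were RpL21 (68.6, 16 bp downstream), RpL15 (61.3, 23 bp upstream), RpL5 (57.0, 61 bp upstream), RpS30 (51.7, 1 bp upstream), RpL40 (48.9, 36 bp upstream), RpS2 (46.9, 292 bp downstream) and RpS13 (36.9, 47 bp upstream). RpL40 encodes a ribosomal protein fused to ubiquitin. The other ubiquitin fusion gene, RpS27A, had a thresholded summit of signal 161, 61 bp upstream. RpL15, RpS30 and RpS13 had a summit in replicate 2 and none within 1 kb in replicate 3.

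No pooled summit lay within 1 kb of RpS3, RpS9, RpL10Aa, RpL22-like, RpL24-like or RpL37-2. RpS9 had weak summits in replicate 2 (rank 11177, 101 bp upstream) and in replicate 3 (rank 23573, 657 bp downstream). RpS3 and RpL24-like had one in replicate 2, at rank 14185 and rank 15333. RpL10Aa, RpL22-like and RpL37-2 had none in any of the 4 lists. A gene without a listed peak is below what the peak calling could list, and is not shown to be unbound.

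The stalk proteins bind elongation factors at the side of the large subunit. RpLP0, their base, had a thresholded summit of signal 331, 20 bp upstream, at rank 1107 in replicate 2 and rank 1766 in replicate 3. RpLP1 reached 91.3 in the pooled list, 63 bp upstream, at rank 4889 in replicate 2, with no summit in replicate 3. RpLP2 reached 70.5 at a summit 196 bp upstream, and a weaker pooled summit lay 4 bp downstream. Its strongest summit was at rank 5749 in replicate 2, 30 bp upstream, and at rank 6797 in replicate 3, 281 bp upstream. RpLP1 and RpLP2 therefore stood below the threshold that RpLP0 passed.

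Like-named copies formed 13 groups with 27 genes, and most groups were split. A thresholded summit was found at all members of RpL34, RpLP0 and RpS19, at some members of 9 groups and at no member of RpS14. RpL34a had 223 and RpL34b 643. RpLP0-like, whose counterpart in budding yeast is a ribosome assembly factor, had 155 against 331 at RpLP0. Its summit lies 23 bp from the start of 14-3-3zeta. RpS19b had 255 and RpS19a 134, but the RpS19b summit is 915 bp upstream, nearer to CG5854, and that of RpS19a 19 bp upstream. RpS14a and RpS14b are tandem copies whose starts are 1156 bp apart, and both fell just below the threshold.

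In the 9 split groups, the copies without a thresholded summit were at 63.7 or less in the pooled list. RpL22 had 290 and RpL22-like, best known from the testis, no pooled summit. RpL24 had 311, RpL10Ab 232 and RpL37-1 155, and RpL24-like, RpL10Aa and RpL37-2 no pooled summit. RpL7 had 638 and RpL7-like 63.7. RpS10b had 217 and RpS10a 45.3. RpS15Aa had 124 and RpS15Ab 37.5. RpS5a had 243 and RpS5b, best known from the ovary, 62.5 at a summit 474 bp upstream. RpS28b had 424, RpS28a 109 and RpS28-like 60.7 at a summit 525 bp downstream. RpL24-like and RpL7-like also have budding yeast counterparts that act in ribosome assembly.

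**Figure D4:**
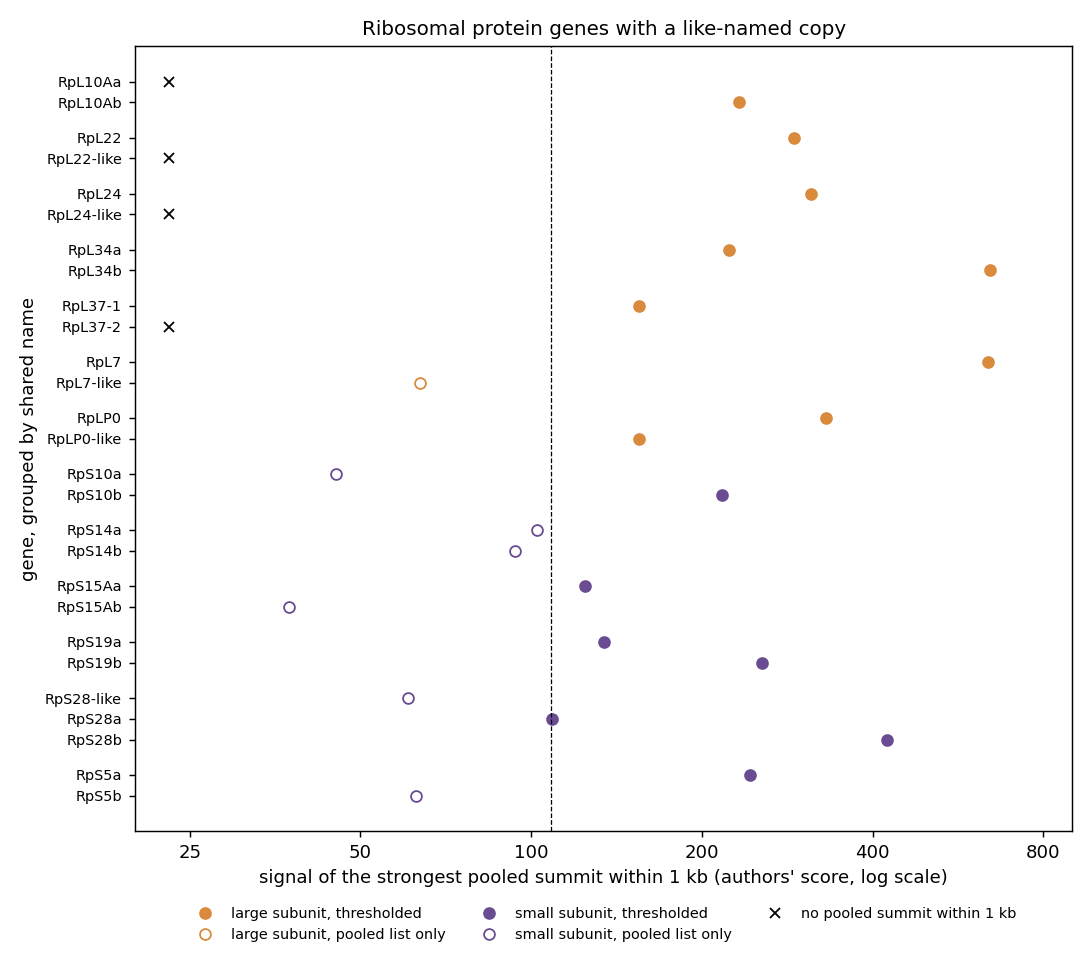
Signal of the strongest pooled summit within 1 kb (log axis, the authors' score) for 27 ribosomal protein genes in 13 like-named groups. Filled points have a thresholded summit, open points only a pooled one, crosses none, and the dashed line marks the lowest thresholded signal of 108. In 9 groups the filled and the other symbols occur together.

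Reads of near-identical copies can be shared or dropped in alignment, and the sources used here do not say how they were handled. Over the 300 bases around the start sites (250 before and 50 after), the edit distance between copies was 147 to 169 base changes. Taken away from the 300 bases, this leaves 43.7% to 51.0%, which is not a share of bases in common. Unrelated promoters were not measured in this way. The values therefore cannot tell whether the copies are more alike here than unrelated sequences. Likeness outside these windows was not measured, and the part of shared or dropped reads in the signals was not tested. Of the 6 ribosomal protein genes with a single exon, 5 of them copies of a group and the other RpLP2, RpS28a had a thresholded summit. RpL10Aa, RpL37-2, RpS10a, RpS15Ab and RpLP2 had none. That is 16.7% of the single-exon ribosomal protein genes, against 11.7% of all single-exon protein-coding genes. Of the 86 ribosomal protein genes with several exons 73.3% had one, against 29.0% of all protein-coding genes with several exons.

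The start sites themselves show the letters that the copies share or lack. The windows below run from 15 bases before to 14 bases after a start site, which is base 16, on the strand of the gene in RefSeq Release 6 (dm6). Capitals mark the TCT initiator, searched as TCTTTC or TCTTTT or CCTTTC or CCTTTT on the sense strand, with its C within 10 bp of a start site. Where more than 1 match meets this limit, only the one nearest to the start site is in capitals. Copies with a thresholded summit come before the copies without one.
RpL10Ab, chr3L:11822836-11822865, plus strand: ctaaaaaccgattttcacttCCTTTCtaaa
RpL10Aa, chr3R:15037351-15037380, plus strand: tacaatacatttcaaattttgtgcttgtag
RpL24, chr2L:13395078-13395107, minus strand: gtttccacttccgtttTCTTTTcttttcgt
RpL24-like, chr3R:11431568-11431597, minus strand: ctgctgactgccgatacattttcatatttc
RpS10b, chrX:19598025-19598054, plus strand: cttcttgtcatcccttccgtttcCCTTTCt
RpS10a, chr3R:27652745-27652774, plus strand: gaagtttcggtaaatactaatttaagctgg
RpS28b, chrX:9554608-9554637, plus strand: ctgtgccgataaccgctcaacttCCTTTTt
RpS28-like, chr2L:9436789-9436818, plus strand: tgtcatttgatattgtaagttacatacccc
RpS5a, chrX:17148250-17148279, minus strand: cacactgccgtaacatgtTCTTTTtcaggc
RpS5b, chr3R:14901549-14901578, minus strand: agctccttttaccgttTCTTTTtcatcctc
RpL7, chr2L:10201085-10201114, plus strand: gtatagcacgtttccggTCTTTCtttccct
RpL7-like, chr2L:12056333-12056362, plus strand: gctccgcgcccacctctatCCTTTTtagtt

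The first 4 of these pairs carry the TCT letters in the copy with a peak and lack them in the other, and in the last 2 pairs both copies carry them. RpS19b, RpL34a and RpS28a lacked the TCT letters within 10 bp of a start site and had a thresholded summit. Within 50 bp each of them had the letters. RpS14a and RpS14b carried the letters within 10 bp without a thresholded summit.

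Over all members, TCT letters with the C within 10 bp of a start site were found at 75 of 92 (81.5%), where 4.09% of all protein-coding genes had them. Within 50 bp they were found at 84 of 92 (91.3%), against 15.9% of all protein-coding genes. That wider limit gave 62 of the 64 members with a peak (96.9%) and 22 of the 28 without (78.6%). By the nearer limit they were found at 54 of the 64 members with a peak (84.4%) and at 21 of the 28 without (75%). Of the 75 with TCT letters, 54 had a thresholded summit (72.0%), and of the 17 without, 10 had one (58.8%). Of the 495 protein-coding genes that carry the letters and are no ribosomal protein genes, 35.6% had a thresholded summit. Their summits lay at a median of 184 bp, with 24.4% within 100 bp, against 41.0 bp and 81.5% at the 54 ribosomal protein genes with the letters.

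Motifs were then searched on both strands within 50 bp of the strongest thresholded summit. CACGCG was found at 9 of 64 ribosomal protein genes (14.1%), against 1.34% of all protein-coding genes with a summit. Among these were RpL7, RpL36, RpL41, RpS18, RpS19a, RpS21, RpS23 and RpS27A. CACGTG was found at RpL7, RpL24 and RpL29, 3 of 64 (4.69%), against 0.777% of all genes with a summit. CACNAG was found at 11 of 64 (17.2%), against 10.9% of all genes with a summit. None of the 3 letter strings can match at the same place as another, and 20 of 64 (31.3%) held at least 1 of them, against 12.6% of all genes with a summit. Median signal was 153 at the 20 ribosomal protein genes with such a match and 232 at the 44 with none.

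The summit windows with an E-box or a class C site at the other genes whose sequence is given here are shown next, since these letters belong to the family of the precipitated protein. They were picked after their values were seen. Window, strand and capitals are as above, and the summit is base 51.
RpS21, chr2L:2856010-2856099, plus strand: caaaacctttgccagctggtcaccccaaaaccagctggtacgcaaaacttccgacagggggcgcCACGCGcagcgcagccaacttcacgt
RpL24, chr2L:13395102-13395192, minus strand: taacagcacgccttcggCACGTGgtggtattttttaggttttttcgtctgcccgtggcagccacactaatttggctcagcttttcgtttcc
RpS27A, chr2L:10408241-10408341, plus strand: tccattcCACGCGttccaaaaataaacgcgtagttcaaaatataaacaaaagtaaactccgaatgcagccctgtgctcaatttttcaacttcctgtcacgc
RpL36, chrX:629454-629535, minus strand: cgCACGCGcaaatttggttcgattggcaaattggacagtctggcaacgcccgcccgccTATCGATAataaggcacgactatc
RpS19a, chrX:16637825-16637923, plus strand: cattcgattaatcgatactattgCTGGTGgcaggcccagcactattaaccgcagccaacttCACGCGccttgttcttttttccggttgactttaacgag

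In RpS21 and RpS19a the class C letters lie within 20 bases of the summit, while in RpS27A and RpL36 they lie near the edge of the window.

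Among the promoter motifs that are not of the E(spl) family, the DRE and the M1BP core were more common at these summits than at those of all genes. TATAAA and GAGAG were less common. TATCGATA, the DRE, was found at 13 of 64 (20.3%), against 3.59% of all genes with a summit. GGTCACAC, the M1BP core, was found at 6 of 64 (9.38%), against 1.21%. TATAAA was found at 4 of 64 (6.25%), against 21.6%, and GAGAG at 2 of 64 (3.13%), against 7.45%. Most summits of all genes lie farther from the start than those of ribosomal protein genes, so the shares were also taken where the strongest summit lay within 100 bp of a start site, at 48 ribosomal protein genes and 1013 genes of all kinds. There the DRE was found at 25% of ribosomal protein genes, against 8.0% of all genes, and the M1BP core at 12.5%, against 2.67%. TATAAA was found at 8.33%, against 16.1%, and GAGAG at 4.17%, against 6.71%. CACGCG was found at 16.7%, against 2.17%, CACGTG at 6.25%, against 1.38%, and CACNAG at 16.7%, against 13.7%. For each of these motifs the ratio of the shares was nearer to 1 than over all summits. The summit windows of ribosomal protein genes held a median of 47.5% G and C, and those of all genes with a summit 33.7%. Where the strongest summit lay within 100 bp of a start site the medians were 49.0% over 48 ribosomal protein genes and 36.6% over 1013 genes of all kinds, and farther away they were 33.7% over 16 and 31.7% over 2721. CACGTG and CACGCG are rich in G and C, and the part of composition in their shares was not tested.

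**Figure D5:**
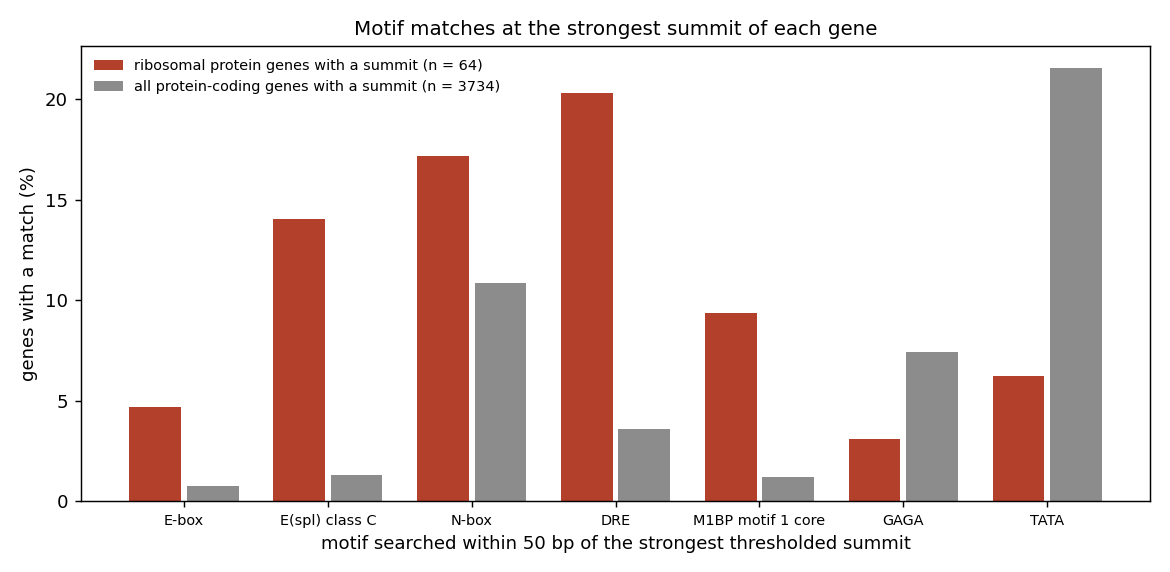
Share of genes (percent) with a motif match within 50 bp of the strongest thresholded summit, for 64 ribosomal protein genes and 3734 protein-coding genes of all kinds with a summit. The class C site stands at 14.1% and 1.34%, the DRE at 20.3% and 3.59%, and the TATA letters at 6.25% and 21.6%.

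Over the promoter (250 bases before to 49 after the start site) the same letters could be compared between members. CACGCG was found at 12 of the 64 ribosomal protein genes with a thresholded summit (18.8%) and at 1 of the 28 without (3.57%), beside 6.12% of all protein-coding genes. CACNAG was found at 20 of the 64 (31.3%) and 4 of the 28 (14.3%), beside 29.7% of all. CACGTG was found at 6 of the 64 (9.38%) and 2 of the 28 (7.14%), beside 4.20% of all. The DRE went the other way, at 18 of the 64 (28.1%) and 10 of the 28 (35.7%), beside 9.36% of all. The G and C content of this window was 38.0% at the median of the 64 and 35.0% at that of the 28, beside 38.0% of all.

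Small nucleolar RNA genes lay inside 28 of the 92 ribosomal protein genes, and 22 of these hosts had a thresholded summit (78.6%), beside 42 of the 64 that hold none (65.6%). Of all 96 protein-coding hosts, the 28 ribosomal protein genes included, 59 had one (61.5%). By arm, the ribosomal protein genes with a summit were 12 of 14 on 3L, 10 of 14 on X, 15 of 21 on 2R, 15 of 23 on 3R and 11 of 19 on 2L, and the single gene on 4, RpS3A, had one. The share of all protein-coding genes was not taken by arm, so these counts do not compare the arms.

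Other gene groups of protein synthesis and turnover give the scale. Among 73 mitochondrial ribosomal protein genes, 39 had a thresholded summit (53.4%), at a median of 136 bp from the start site. Among 51 translation initiation and elongation factor genes 19 had one (37.3%), at a median of 87 bp. Among 48 proteasome subunit genes 11 had one (22.9%), at a median of 66 bp. The nearest summit lay within 100 bp at 57.9% of these 19 and 54.5% of these 11. That compares with 78.1% at ribosomal protein genes and 30.5% at all genes with a summit. Both ribosomal protein genes named without Rp, sta and Rack1, had one, at a median of 24 bp. Among 14 ribosome biogenesis genes 10 had one (71.4%), at a median of 136.5 bp. Of 9 genes for factors tied to transcription of ribosomal protein genes, Dref, M1BP, Max and Mnt had a thresholded summit, while crol, Rfx, Xrp1, Myc and Trf2 had a pooled one only. A start of Dref lies 84 bp from that of RpL13 on the other strand, so the summit counted for RpL13 also counts for Dref.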

How the data were processed

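ChIP-seq peaks of 2 replicates of tagged E(spl)m3-HLH were analysed. Per the labels, and per the file listings deposited beside the lists, the authors made peak calls for each replicate and for both together, each with a control file, on dm6. The sources used here name no aligner, peak caller or version. The deposited signal is the authors' score per peak, so it served to order peaks inside a list. The other column used gives the summit position, stored by the authors in bp. The lists on dm3 were not used. No file gives read counts.

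Summits (1-based) were assigned to protein-coding genes of Ensembl release 115, without transposable elements, within 1 kb of any start site. All genes include the ribosomal protein genes. Motifs were searched within 50 bp of the strongest summit. Python 3.11.15, numpy 2.4.6, pandas 2.3.3 and scipy 1.17.1 were used, and assignment was tested on made-up genes with known answers. No test of difference was run: with 1 group, lists are described by counts beside all genes. The members, the lists and the motifs were chosen with earlier results of these data known. Named genes were the 10 strongest and 5 weakest peaks, all members without a thresholded summit, all like-named copies and stalk genes, members with several summits, and those nearest the 1 kb limit, of which a few are not reported here.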

Additional observations from a re-analysis of the deposited data

How the results depend on the processing

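Counts of ribosomal protein genes with a peak moved little with most settings. Shares of all protein-coding genes under the same setting follow in brackets. With 64 of 92 as reported (26.8%), a limit of 500 bp gave 61 (23.2%) and a limit of 2 kb 68 (32.5%). Intervals in place of summits gave 64 (27.9%), and the most upstream start site alone 64 (24.8%). Summits counted only for their nearest start site gave 54 (19.0%). The replicates taken alone gave 55 without replicate 2 (25.4%) and 62 without replicate 3 (27.4%). The stronger 50% of the thresholded list lowered the count to 38, against 16.1% of all protein-coding genes. Of these, 25 were of the large and 13 of the small subunit, and 31 had the nearest start site at the gene itself. Under that setting the median place became 62.4%, against 43.8% for all genes, and in the whole pooled list 14.6%, against 23.1%, so the likeness of 39.8% and 39.3% held in neither. The replicates taken alone gave median places of 35.8% to 44.3%, large-subunit counts of 33 to 39 and small-subunit counts of 22 to 23. The median distance of 48.5 bp became 41 at 500 bp, 52 at 2 kb, 40 in the pooled list, 33.5 when a summit counted only for its nearest start site, 52 from the most upstream start site and 46 without the -like genes, and 47.5 to 51 in single replicates. Each of these was below the value for all genes under the same setting. Like-named groups with a summit at every copy, 3 as reported, became 9 in the pooled list, 1 in the stronger 50%, 0 when a summit counted only for its nearest start site, and 1 without replicate 2 and 4 without replicate 3. Matches to any of the 3 E(spl) family motifs fell to 11 genes within 25 bp, against 20 within 50 bp. The shares of all genes with a summit were 6.21% within 25 bp and 12.6% within 50 bp. Matches to CACGCG fell to 4, against 9, where the shares of all genes were 0.402% and 1.34%. In single replicates, within 50 bp, the 3 motifs gave 17 in each, against 12.4% to 13.1% of all genes with a summit. CACGCG alone gave 6 to 8, against 1.24% to 1.31%. The nearer limit for TCT letters was chosen after seeing the data. Swapping lists could not be applied to the count in both replicates. No paired analysis was possible because there is 1 group. Depth is unknown, and the lists end where the authors' peak calling stopped.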
